A study of Mus musculus with 4 samples.

Results

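Alveolar macrophages were described here in a single-cell RNA data set of mouse lung, in which they made up 197 of the 16541 cells kept. A cell was counted as an alveolar macrophage when it had at least 500 detected genes, at most 15% mitochondrial transcripts, and at least 1 transcript of 3 or more of the 5 genes Chil3, Marco, Ear2, Atp6v0d2 and Krt79. Cells with 3 or more of 5 endothelial genes (Cdh5, Ptprb, Pecam1, Tek, Calcrl) or of 4 neutrophil genes (Il1r2, S100a9, Trem1, Cxcr2) were left out. The members were chosen by the transcript counts of the measured cells, so the levels of these genes, and every contrast of the chosen cells with other cells, are given as descriptions and were not tested.

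The study pooled the lungs of 6 mice for each of 2 groups of C57Bl6/J littermates aged 8 weeks and barcoded both pools together by split-pool ligation (SPLiT-seq, Parse Evercode WT v2), which marks each transcript with a unique molecular identifier (UMI). The Cre_Pos pool came from Shh.Cre+/Flox-p73 mice, in which Cre removes exons E7 to E9 of Trp73, and the Cre_Neg pool from Shh.Cre-/Flox-p73 mice that carried the same floxed allele on both chromosomes but no Cre. Shh.Cre is a driver that acts in the lung epithelium, and p73, the product of Trp73, is a transcription factor of the p53 family known for its role in multiciliated cells. The 4 sublibraries hold aliquots of both pools, so their spread is technical, and with 1 pool for each genotype a difference between genotypes cannot be told apart from a difference between pools, preparations or barcoding wells.

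Alveolar macrophages live on the air side of the alveolus, where they take up inhaled particles, dying cells and spent surfactant and break down its lipid in their lysosomes. They are seeded around birth and then maintain themselves largely by local division. GM-CSF (Csf2), made by alveolar type 2 cells, the epithelial cells that secrete surfactant, induces the nuclear receptor PPAR-gamma (Pparg) and with it the program of lipid handling, and autocrine TGF-beta sustains it. Interstitial macrophages of the lung tissue and blood monocytes are related myeloid cells that lack this program, and they served here as the cells of comparison.

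Before barcoding, cells bearing CD45, the surface protein encoded by Ptprc, had been depleted with magnetic beads, cells bearing Epcam had been enriched and dead cells had been sorted out, so that the share of any leukocyte reflects what escaped these steps. The kept cells of the 4 sublibraries held between 38553372 and 51138765 UMIs. The 193 alveolar macrophages of the Cre_Neg pool held 2681792 UMIs, with a median of 13143 per cell (1028 to 69170) and of 3508 detected genes. The compared classes were 110 Cre_Neg monocytes with a median of 6924 UMIs, 23 Cre_Neg interstitial macrophages with a median of 12556 and 2123 Cre_Neg alveolar type 2 cells with a median of 11662. Trp73 itself was at 85.7 CPM, a gene's UMIs per 1000000 UMIs of the cells in question, in all kept Cre_Neg cells (sublibraries 78.6 to 92.8) and at 12.4 CPM in Cre_Pos cells (6.69 to 16.1), while the 193 Cre_Neg alveolar macrophages together had 2 Trp73 UMIs. Sublibraries shared 285 of the well combinations that identify cells, and 3 of the 197 members had a combination that another kept barcode also held, none of them a pair of members.

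The label was set beside 13 marker genes of alveolar macrophages that the rule did not use. These were chosen with earlier results of these data known, so they are a description and not an independent check. The number of markers seen can also rise with depth, which was lower in monocytes (median 6924 UMIs) than in Cre_Neg members (13143). All 197 members had transcripts of at least 3 of these, the Cre_Neg members had between 5 and 13, and their median was 10. By contrast 13 of the 110 monocytes, 8 of the 23 interstitial macrophages and 29 of the 2123 alveolar type 2 cells reached 3. Siglecf, the lectin by which alveolar macrophages are usually sorted, was at 129, 104, 85.1 and 86.8 CPM in sublibraries 1 to 4 and had no UMI in monocytes, interstitial macrophages or alveolar type 2 cells. Car4, a membrane carbonic anhydrase, was at 205, 202, 239 and 325 CPM in the same order and likewise had no UMI in monocytes or interstitial macrophages. No member carried 3 or more markers of monocytes, interstitial macrophages, dendritic cells, eosinophils, B cells, T cells or fibroblasts, and the 4 eosinophil markers, looked at because eosinophils share Siglecf, were all at 0. The markers of interstitial macrophages summed to 4.47 CPM in the Cre_Neg members (12 UMIs) and those of monocytes to 38.8 CPM, of which Fcgr4, an Fc receptor, made up 22.4 CPM, against 51.1 CPM of it in monocytes.

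**Figure D1:**
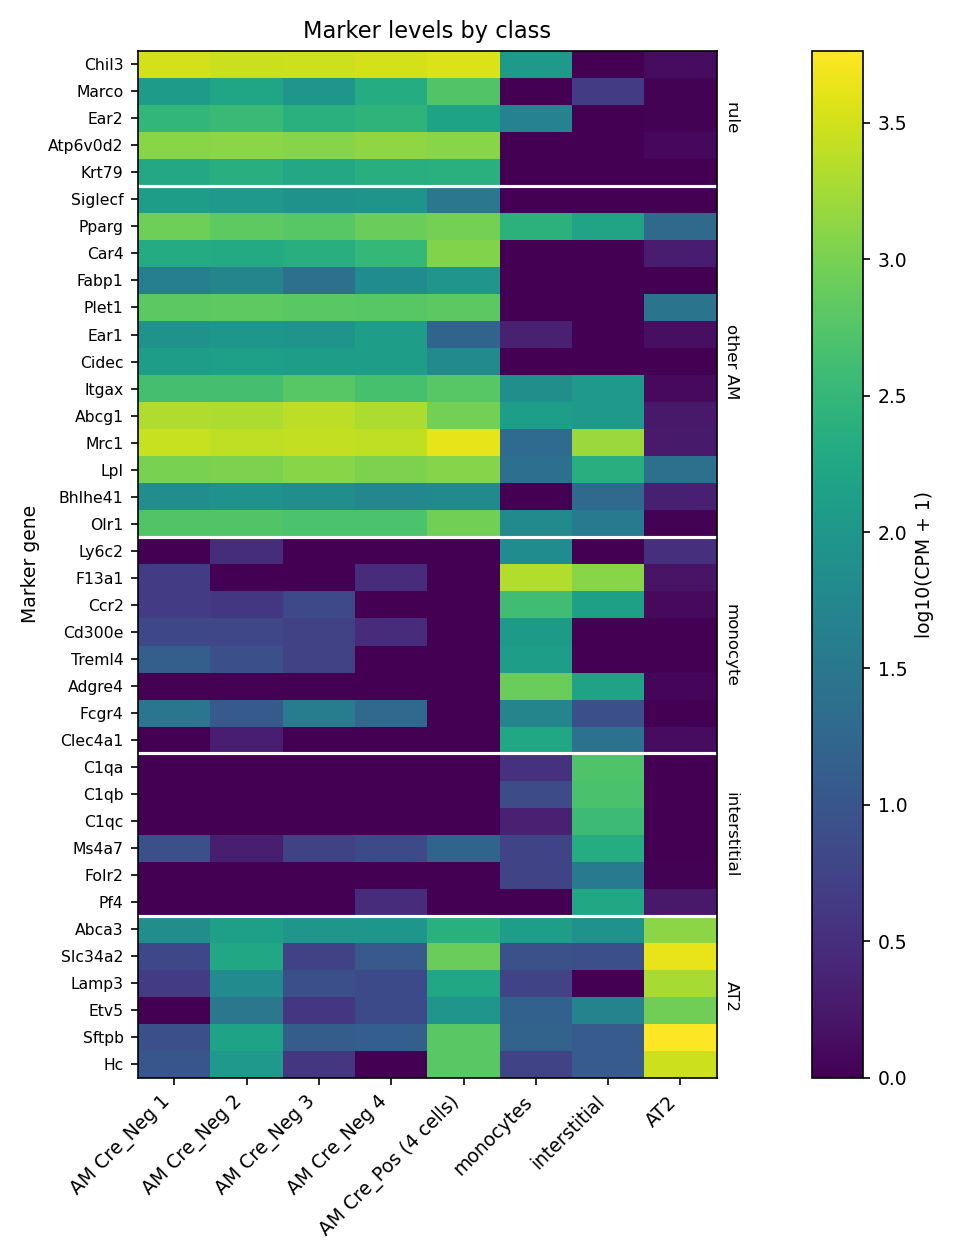
Levels of the 5 rule genes, 13 further alveolar macrophage (AM) markers and the markers of 3 compared classes (rows) in the AMs of each Cre_Neg sublibrary, the 4 AMs of the Cre_Pos pool and the compared classes (columns), as log10(CPM + 1). Interstitial markers, and monocyte markers other than Fcgr4 (22.4 CPM), were at or near 0 in Cre_Neg AMs, and alveolar type 2 (AT2) markers were higher in Cre_Neg sublibrary 2 and in the Cre_Pos AMs than in the other 3 sublibraries.

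Epithelial markers were found in some members. In the Cre_Neg pool 14 members had at least 3 of the 6 alveolar type 2 markers, spread as 3, 3, 5 and 3 cells over sublibraries 1 to 4, with a median of 16206 UMIs against 12785 in the other Cre_Neg members. In the Cre_Pos pool 1 of the 4 members had all 6. A single Cre_Neg barcode, in sublibrary 2 with 69170 UMIs and all 6 alveolar type 2 markers, also had all 5 ciliated cell markers and held 184 of the 306 UMIs of these in the Cre_Neg members (114 CPM, and 46.7 CPM without it). The part of these members in the results was not tested, and sums of alveolar type 2, surfactant and Epcam transcripts are given with and without them.

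Alveolar macrophages were abundant in 1 pool and nearly missing from the other. They made up 193 of 7793 kept Cre_Neg cells (2.48%, exact binomial 95% interval 2.14 to 2.85%) and 4 of 8748 kept Cre_Pos cells (0.0457%, 0.0125 to 0.117%), a 54.2-fold difference (exact interval 20.8 to 201). In the Cre_Neg pool the share was 2.47%, 2.68%, 2.50% and 2.15% in sublibraries 1 to 4, which overlap within their intervals, and each Cre_Pos aliquot held exactly 1 such cell, 0.0413 to 0.0602% of its kept cells. All 22 Cre_Neg barcoding wells with kept cells held alveolar macrophages (5 to 18 each, median 8), against 3 of 23 Cre_Pos wells. These intervals and those below cover counting error only, not the variation between mice. Neither the genotypes nor the pools were replicated, so the difference has no replicate check.

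Related cells differed less between the pools. Monocytes were 110 cells in each pool, 1.41% in Cre_Neg and 1.26% in Cre_Pos (1.12-fold, 0.854 to 1.48). Interstitial macrophages numbered 23 and 8 (3.23-fold, 1.39 to 8.35), with an interval below that of the alveolar macrophages. Among kept cells with a Ptprc UMI, alveolar macrophages were 192 of 951 (20.2%) in Cre_Neg and 4 of 676 (0.592%) in Cre_Pos, a 34.1-fold difference (13.1 to 126). Alveolar type 2 cells made up 27.2% of the Cre_Neg pool and 17.9% of the Cre_Pos pool. The part of the bead steps in these differences was not tested.

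The pools also differed in the mix of sexes. Cells were sorted by transcripts of Xist, expressed from the inactive X of female cells, and of 4 Y-linked genes, and among cells with transcripts of only 1 of these, Y-only cells were 17.6% in Cre_Neg and 6.85% in Cre_Pos. The labels used here give no number of males and females. Within Xist-only cells, alveolar macrophages were 133 of 5415 in Cre_Neg and 3 of 7181 in Cre_Pos (58.8-fold, 19.7 to 289). Among Y-only cells the numbers were 38 of 1155 and 1 of 528 (17.4-fold, 2.94 to 704), so both sexes had the same direction, the latter with a wide interval. In the Cre_Neg members 38 of 171 sex-called cells were Y only, against 12 of 92 monocytes and 377 of 1904 alveolar type 2 cells of that pool.

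**Figure D2:**
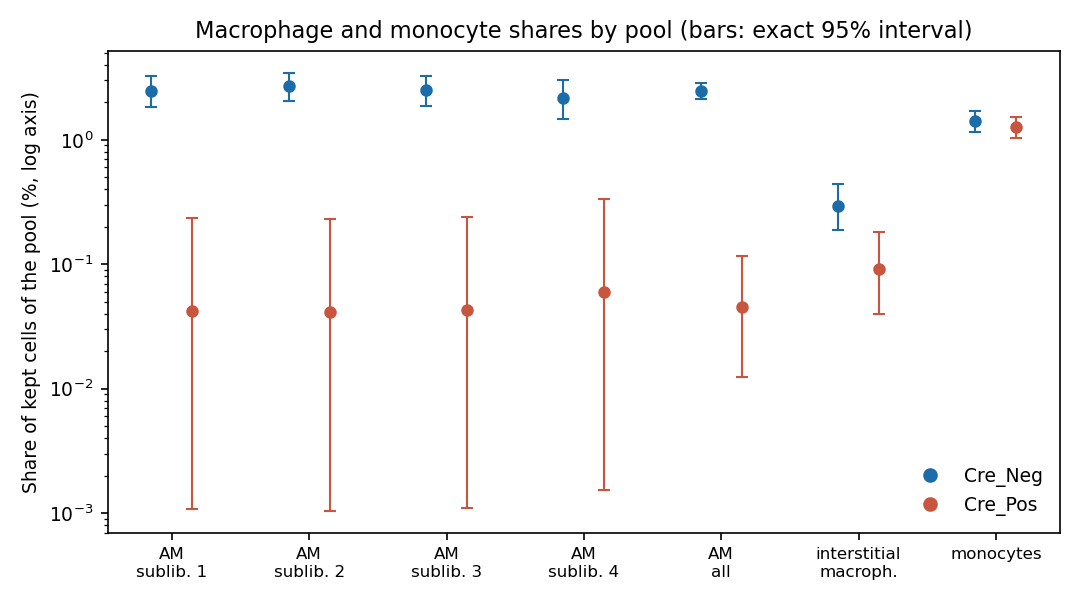
Share of kept cells (percent, log axis) held by alveolar macrophages (AM) in each sublibrary and in all, by interstitial macrophages and by monocytes, in the Cre_Neg and the Cre_Pos pool. Points are shares and bars exact 95% binomial intervals. AM shares were 2.15 to 2.68% in Cre_Neg and 0.0413 to 0.0602% in Cre_Pos, while monocyte shares of the pools overlapped.

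With a limit of 4 rule genes in place of 3 the difference between the pools was 42.9-fold. Among Cre_Neg members 40 had exactly 3 of the 5 rule genes, 86 had 4 and 67 had all 5, and the Cre_Pos members had 4 (3 cells) or 5 (1 cell). Just outside, 7 Cre_Neg and 3 Cre_Pos cells had exactly 2. Those just outside carried a median of 4 and of 3 of the 13 further markers, which summed to 4415 and 1225 CPM, against a median of 10 and 8656 CPM in the 40 members just inside. The endothelial and neutrophil exclusions removed 5 Cre_Neg cells and 0 Cre_Pos cells. With fewer than 500 but at least 200 genes, another 1 Cre_Neg and 3 Cre_Pos barcodes met the marker rule.

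The 4 Cre_Pos alveolar macrophages were not the same kind of barcode. The cell of sublibrary 1 had 18478 UMIs, all 6 alveolar type 2 markers (166 UMIs) beside 9 of the 13 further macrophage markers, and was called a doublet, that is 2 cells under 1 barcode, by Scrublet. The other 3, from sublibraries 2, 3 and 4, had 10091, 16413 and 20798 UMIs, 10, 10 and 13 of the further markers, at most 2 alveolar type 2 markers and no doublet call. Of these 3, the cells of sublibraries 2 and 4 had Xist and that of sublibrary 3 had Y-linked transcripts. None had 3 or more markers of monocytes or interstitial macrophages.

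The macrophage genes were then compared between these 4 cells and the Cre_Neg members. The 5 rule genes summed to 5868 CPM against 5022 CPM in Cre_Neg members, and the 13 further markers to 10839 against 8913 CPM, both sums being fixed in part by the rule. Of the 20 genes that led the Cre_Neg members, all 20 had a UMI in the 4 cells, and the exact Poisson interval of the Cre_Pos level held the Cre_Neg level for 11, lay above it for 5 and below it for 4, all 5 rule genes being among the 20. Without the cell that carried all 6 alveolar type 2 markers, 19 of the 20 had a UMI. The interval then held the Cre_Neg level for 13, lay above for 6 and below for 1.

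With so few cells, single cells set several of these values. Marco, a scavenger receptor, was at 547 CPM in the 4 Cre_Pos cells against 149 CPM in Cre_Neg, with 11, 2, 0 and 23 UMIs in the cells of sublibraries 1 to 4. Mrc1, the mannose receptor, had 36, 15, 40 and 184 UMIs in the same order, and all 6 Fabp1 UMIs lay in the cell of sublibrary 4. Kcnip4 had 45, 0, 70 and 82. Egfem1 had 17 UMIs in the 4 cells and 0 in the 3 with fewer than 3 alveolar type 2 markers. The latter allows at most 78.0 CPM, against 474 CPM in Cre_Neg members. The 20 cell cycle genes summed to 4 UMIs (60.8 CPM, 16.6 to 156), against 600 CPM in Cre_Neg, where 8 of 193 cells held 1095 of the 1609 UMIs. The 6 alveolar type 2 markers summed to 2630 CPM in the 4 cells, against 309 CPM in Cre_Neg members. Without members with 3 or more of these markers in either pool, the sums were 148 CPM (59.5 to 305) and 108 CPM.

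**Figure D3:**
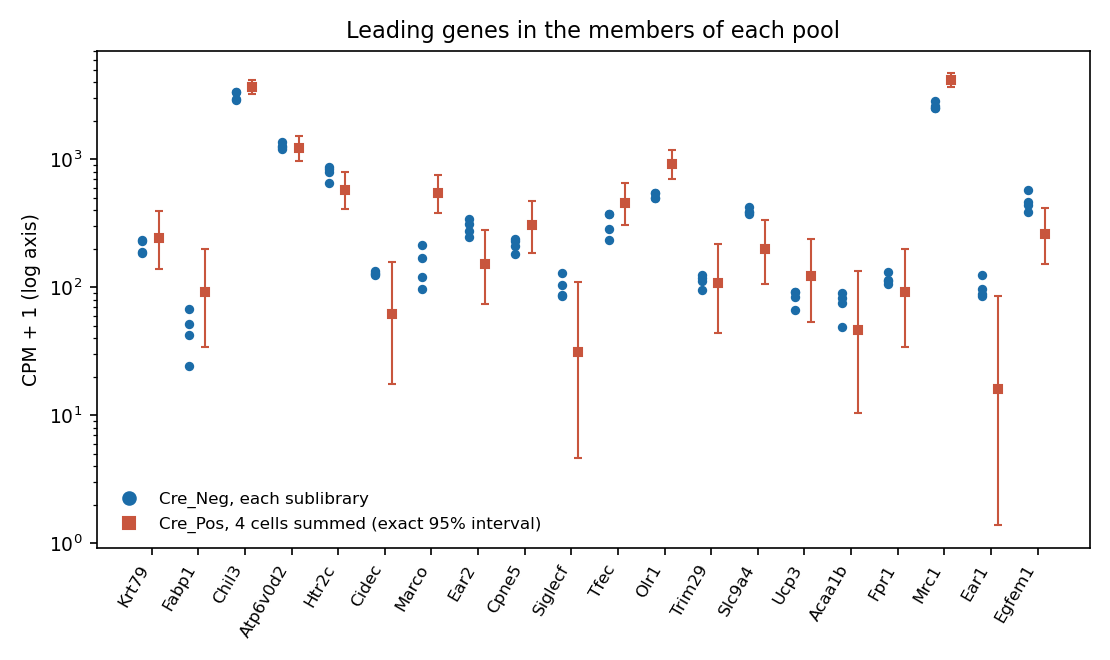
Levels (CPM + 1, log axis) of the 20 leading genes of Cre_Neg alveolar macrophages, in each Cre_Neg sublibrary (circles) and summed over the 4 Cre_Pos alveolar macrophages (squares with exact 95% Poisson intervals). Of the 20 intervals 11 hold the Cre_Neg level, with Marco and Mrc1 above them and Ear1, Ear2, Slc9a4 and Egfem1 below.

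The 20 genes that most set the Cre_Neg alveolar macrophages apart from all other kept Cre_Neg cells, by the lower bound of their ratio, were Krt79, Fabp1, Chil3, Atp6v0d2, Htr2c, Cidec, Marco, Ear2, Cpne5, Siglecf, Tfec, Olr1, Trim29, Slc9a4, Ucp3, Acaa1b, Fpr1, Mrc1, Ear1 and Egfem1. The ranking took genes with at least 100 UMIs in the members. Mitochondrial, ribosomal protein, haemoglobin and sex-linked genes and names starting with Gm or ending in Rik were left out. All 5 rule genes are among the 20, which the rule fixes. Across all genes with at least 20 UMIs, 12.2% were at least 2-fold higher and 31% at least 2-fold lower in alveolar macrophages than in the other cells. Krt79, a keratin, was at 187, 231, 186 and 232 CPM in the 4 sublibraries and at 0.139 CPM in the other cells. Htr2c, which encodes a serotonin receptor, was at 870, 794, 650 and 848 CPM and had no UMI in monocytes or interstitial macrophages.

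Among the leading genes, Fabp1 encodes a fatty acid binding protein, Cidec a lipid droplet protein, Acaa1b a peroxisomal thiolase of fatty acid oxidation and Ucp3 a mitochondrial carrier. Cidec was nearly level over the sublibraries, at 129, 134, 125 and 127 CPM, whereas Fabp1 ranged over 41.8, 50.3, 23.5 and 66.6 CPM. Olr1 encodes a receptor for oxidised lipoprotein, Fpr1 the receptor for formylated bacterial peptides and Tfec a transcription factor of the family that includes Mitf and Tfeb.

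The list of chitinase-like and RNase genes holds the rule genes Chil3 and Ear2, whose levels the choice of members fixed in part. Chil3, which encodes the secreted chitinase-like protein Ym1, was at 3379, 2899, 2969 and 3337 CPM in sublibraries 1 to 4, against 107 CPM in monocytes and 0 UMIs in interstitial macrophages. After each cell was thinned to 2000 UMIs, 96.8% of the alveolar macrophages still held a Chil3 UMI, against 12.1% of the monocytes and 0.0485% of the alveolar type 2 cells. Ear2, an eosinophil-associated RNase, was at 314, 339, 246 and 277 CPM and Ear1 at 85.4, 95.4, 88.0 and 123 CPM, against 46.1 and 1.25 CPM in monocytes and 0 UMIs in interstitial macrophages. The remaining genes of this list were low in the Cre_Neg members: Chil1 had 39 UMIs (14.5 CPM), 35 of them in 1 sublibrary 2 barcode of 69170 UMIs that also bore all 6 alveolar type 2 markers, and was at 1.53 CPM without it. Ear6 had 1.49 CPM, and Chit1, Ear10 and Ear14 had no UMI.

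Ear1 and Ear2 are near copies of each other, so the split of their reads is uncertain. Their annotated transcripts were identical at 691 of 717 aligned bases (96.4%), Ear2 and Ear10 at 94.5% and Ear2 and Ear6 at 88.5%. The 250 bases before the 2 genes' starts were identical at 246 of 248 aligned bases. They are printed here with those of Cidec and Fabp1 because all 4 genes lead the alveolar macrophages and hold the same 8-letter pattern, TTGCNNAA, a core read by C/EBP factors, in this window (capitals). A second run of capitals in Cidec marks TGANTCA, a core read by AP-1 factors. The sequences are the RefSeq promoter windows of build GRCm38.p6, written 5′ to 3′ on the gene's strand.
Ear1, chr14:43819640-43819889, minus strand: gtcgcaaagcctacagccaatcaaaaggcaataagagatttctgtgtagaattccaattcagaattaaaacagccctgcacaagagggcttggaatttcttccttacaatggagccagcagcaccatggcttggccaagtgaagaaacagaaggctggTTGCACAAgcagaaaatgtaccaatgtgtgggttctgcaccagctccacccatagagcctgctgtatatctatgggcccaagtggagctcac
Ear2, chr14:44102404-44102653, plus strand: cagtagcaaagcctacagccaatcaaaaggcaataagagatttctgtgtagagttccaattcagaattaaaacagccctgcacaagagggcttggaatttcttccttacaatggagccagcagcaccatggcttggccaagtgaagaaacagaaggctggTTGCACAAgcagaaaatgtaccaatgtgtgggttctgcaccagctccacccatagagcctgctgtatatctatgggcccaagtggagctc
Cidec, chr6:113434765-113435014, minus strand: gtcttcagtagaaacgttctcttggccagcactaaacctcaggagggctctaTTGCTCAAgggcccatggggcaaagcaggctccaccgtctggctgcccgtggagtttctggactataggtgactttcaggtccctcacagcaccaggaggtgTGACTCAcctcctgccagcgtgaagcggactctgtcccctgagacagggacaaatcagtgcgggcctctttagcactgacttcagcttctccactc
Fabp1, chr6:71199629-71199878, plus strand: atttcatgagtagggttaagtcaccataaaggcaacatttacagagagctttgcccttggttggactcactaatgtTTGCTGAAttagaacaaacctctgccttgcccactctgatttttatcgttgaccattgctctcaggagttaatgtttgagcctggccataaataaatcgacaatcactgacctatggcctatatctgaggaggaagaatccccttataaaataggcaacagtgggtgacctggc

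Counted from 1 at the 5′ end of each printed run, TTGCNNAA began at base 159 in Ear1, 161 in Ear2, 53 in Cidec and 77 in Fabp1. Of the 20 leading genes 17 had a window (250 bases before to 50 after the start), 19 windows in all. TTGCNNAA, read on both strands, was in 5 of these 19 windows (those of Cidec, Ear1, Ear2, Fabp1 and Htr2c) and in 10.8% of all 32851 windows, where Ear1 and Ear2 count as copies. TGANTCA was in 3 of 19 and in 7.81% of all. GAGGAAGT (PU.1), CACGTG (E-box) and the direct repeat read by PPAR-RXR were in 0 of the 19 windows and in 3.20%, 7.15% and 0.0396% of all. A match is a stretch of letters and not a measured binding site.

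To place the profile among related cells, levels were compared with those of Cre_Neg monocytes and interstitial macrophages, calling a gene higher or lower when its CPM differed at least 2-fold and it had at least 20 UMIs over both classes. Against monocytes 1985 of 9366 genes were higher in alveolar macrophages (21.2%) and 1375 were lower (14.7%), and against interstitial macrophages 1551 of 9088 were higher (17.1%) and 1362 lower (15%). The median log2 ratio over all these genes was 0.04 and 0.00. Counts of gene lists below are read against these percentages. Where a class had no UMI, the ratio was taken against 3 UMIs and is a bound. Because the compared classes hold few cells, leaving out 1 sublibrary moved the ratio of 40 of the 111 singly examined genes that were 2-fold apart from monocytes by over 1.5 times, and of 52 of the 98 that were so against interstitial macrophages, with no change of sign.

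The transcription factors examined for alveolar macrophage identity went both ways. Of 14 factors, 7 were higher and 3 lower than in monocytes (median log2 ratio 0.90), and 5 were higher and 3 lower than in interstitial macrophages (median 0.51). Pparg was at 845, 682, 606 and 836 CPM in sublibraries 1 to 4, against 265 CPM in monocytes and 155 CPM in interstitial macrophages (log2 ratios 1.45, interval 1.24 to 1.66, and 2.22, 1.79 to 2.69, the latter 3.73 without sublibrary 1). Bhlhe41, which with Bhlhe40 is known to sustain self-renewal of these cells, was at 71.6 CPM against 0 UMIs in monocytes and 18.1 CPM in interstitial macrophages. Egr2 was at 62.6 CPM against 2.49 and 14.5 CPM. Cebpa, a factor of macrophage maturation, was at 77.2 CPM against 22.4 and 39.8 CPM.

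Maf and Zeb2 were among the factors with lower levels than in both classes. Maf had 1 UMI in all members (0.373 CPM) against 38.6 CPM in monocytes and 477 CPM in interstitial macrophages. Zeb2 was still at 1354 CPM, against 3701 CPM in monocytes and 2983 CPM in interstitial macrophages. The log2 ratio of Zeb2 to interstitial macrophages was -0.75 without sublibrary 2 and -0.87 with cells thinned to 2000 UMIs. It was -0.82 when members needed 4 rule genes and interstitial macrophages 1 marker more. Spi1, which encodes PU.1, differed less than 2-fold from both classes.

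Receptors for growth factors went both ways. Csf2rb, the signalling chain of the GM-CSF receptor, was at 543, 519.8, 568 and 571 CPM over the sublibraries, against 194 CPM in monocytes and 159 CPM in interstitial macrophages (log2 ratios 1.49, 1.25 to 1.74, and 1.78, 1.35 to 2.25). Csf2ra, its ligand-binding chain, was at 239 CPM against 283 CPM in monocytes. Csf1r, the receptor for M-CSF, was at 116 CPM against 678 and 687 CPM (log2 ratios -2.55 and -2.57). The TGF-beta receptors Tgfbr1 and Tgfbr2 were at 861 and 511 CPM, higher than in monocytes (375 and 191 CPM) and less than 2-fold higher than in interstitial macrophages. Itgav, an integrin chain that activates TGF-beta, was lower than in both (63.8 CPM against 257 and 300 CPM). Of the 12 measured genes of this list, 5 were higher and 4 lower than in monocytes (all genes 21.2% and 14.7%). Against interstitial macrophages 3 were higher and 2 lower (all genes 17.1% and 15%), near the shares of all genes. Csf2ra, 1 of those 3, was under 2-fold without sublibrary 1, 3 or 4 (log2 ratios 0.65, 0.86 and 0.82).

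Csf2, the gene of the ligand GM-CSF, was seen in alveolar type 2 cells of both pools. Csf2 was at 2.72 CPM (72 UMIs, exact Poisson interval 2.13 to 3.43) in Cre_Neg and 3.42 CPM (83 UMIs, 2.73 to 4.24) in Cre_Pos alveolar type 2 cells, and at 0 UMIs in Cre_Neg alveolar macrophages. Csf1, which encodes M-CSF, was at 9.78 and 6.43 CPM in those cells (intervals 8.63 to 11.1 and 5.46 to 7.52). Tgfb1 was at 13.1 and 12.7 CPM. The intervals of the pools overlapped for Csf2 and did not for Csf1. The part of these ligands in the difference between the pools was not tested.

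Genes of lipid uptake, storage and efflux were more often higher than lower in both comparisons. Summed over the list they were at 6068 CPM in the members, 1536 CPM in monocytes and 4545 CPM in interstitial macrophages. In Cre_Neg alveolar type 2 cells the sum was 6317 CPM, so the summed level is not particular to the members. Of 21 measured, 13 were higher and 1 lower than in monocytes (median log2 ratio 1.75), and 11 were higher and 3 lower than in interstitial macrophages (median 1.13). Abcg1, the sterol exporter whose loss causes lipid-laden alveolar macrophages, was at 2076, 2023, 2433 and 2033 CPM against 122 and 108 CPM in monocytes and interstitial macrophages (log2 ratios 4.13, 3.84 to 4.43, and 4.30, 3.79 to 4.87). Lpl, lipoprotein lipase, was at 1023, 1049, 1225 and 1044 CPM against 22.4 and 231 CPM. Sublibrary 3 was the highest for both genes, and the other 3 aliquots lay close together.

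Droplet and hydrolase genes followed. Mgll, monoacylglycerol lipase, was at 553 CPM against 0 UMIs in monocytes (at least 148-fold higher) and 1 UMI in interstitial macrophages. Cidec had 0 UMIs in both classes, and Plin2, the coat protein of lipid droplets, was at 506 CPM against 156 and 181 CPM. Pla2g15, a lysosomal phospholipase that degrades surfactant lipid, was at 172 CPM against 18.7 and 61.5 CPM. The lower genes were Apoe, at 6.71 CPM against 265 CPM in monocytes and 1645 CPM in interstitial macrophages, and, against interstitial macrophages, Abca1 (155 against 1030 CPM) and Cd36 (at 582 CPM there, against 188.9, 287.2, 331.5 and 242.3 CPM over the 4 sublibraries). The Cd36 difference was under 2-fold without sublibrary 1 or 2 (log2 ratios -0.71 and -0.73).

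Of 23 measured lysosome and V-ATPase genes, 10 were higher and 0 lower than in monocytes (median log2 ratio 0.81), whereas against interstitial macrophages 4 were higher and 3 lower (median 0.20). Atp6v0d2, a subunit of the lysosomal proton pump that is restricted to few cell types and a gene of the rule, was at 1257, 1275, 1197 and 1365 CPM and had no UMI in either class. Its ubiquitous counterpart Atp6v0d1 was at 112 CPM, against 99.7 and 65.1 CPM. Ctsd and Ctsk, cathepsin proteases, were at 921 and 132 CPM against 28.7 and 3.74 CPM in monocytes. Gpnmb, a glycoprotein of lipid-loaded macrophages, was at 138, 239, 219 and 218 CPM, lowest in sublibrary 1, against 2.49 and 43.4 CPM. Ctsd was at 456 CPM in interstitial macrophages, a log2 ratio of 1.01 that became 0.73 without sublibrary 1 and 0.70 without sublibrary 3. Ctsb and Cd63 were lower than in interstitial macrophages, where they were at 1381 and 127 CPM against 450.4 and 21.6 CPM.

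**Figure D4:**
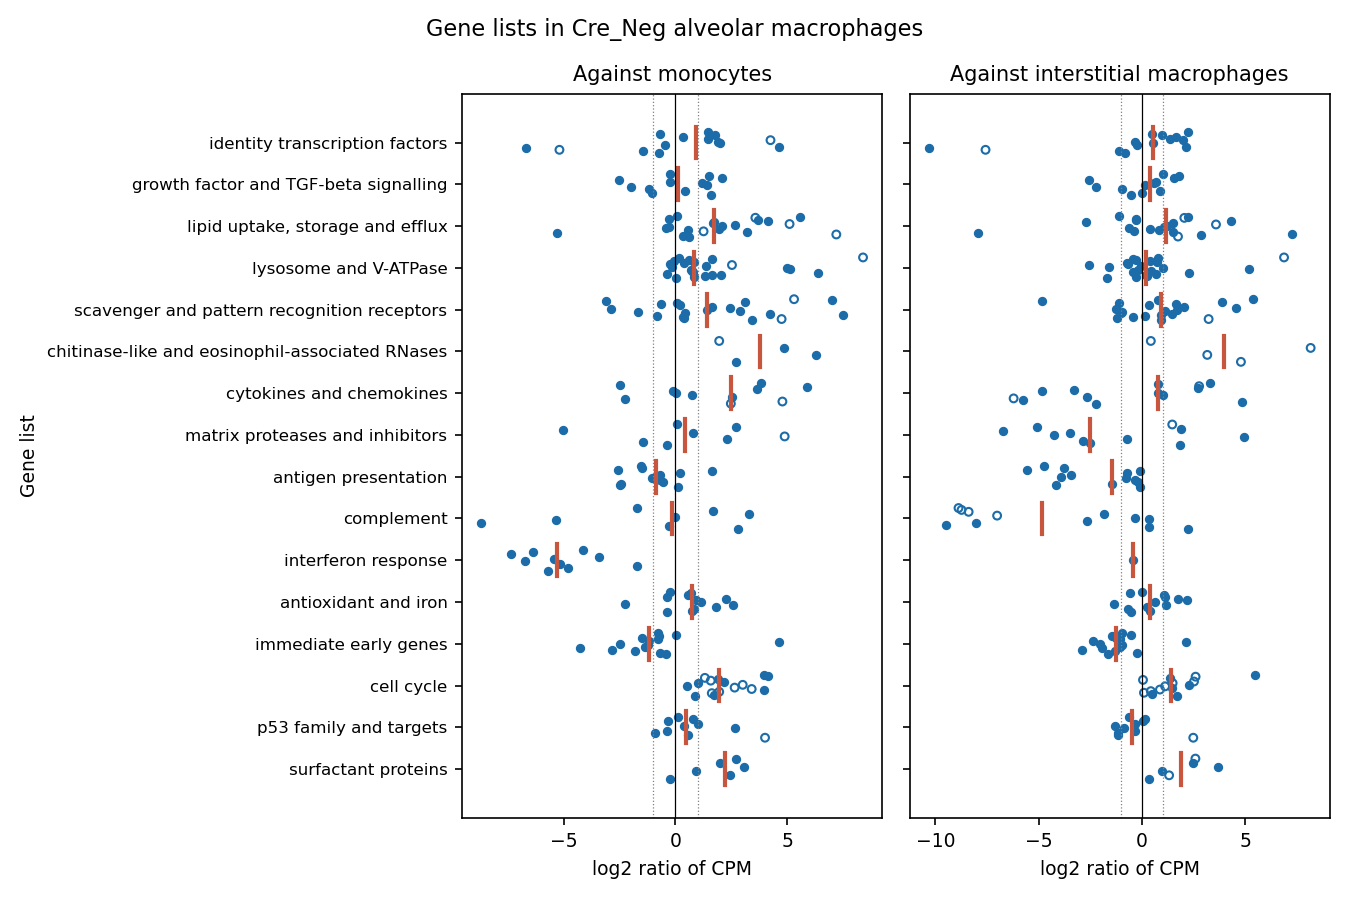
Log2 ratio of CPM in Cre_Neg alveolar macrophages over Cre_Neg monocytes (left) and interstitial macrophages (right) for the genes of each list with at least 20 UMIs. Filled points are ratios, open points bounds against 3 UMIs, short vertical bars list medians and dotted lines the 2-fold limits. The medians of the lipid and RNase lists lie to the right of 0 in both panels, the latter over 4 genes of which Chil3 and Ear2 were used to choose the members, and the interferon list lies to the left against monocytes.

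Receptors for particles and dying cells formed the next group, with 11 of 21 higher and 3 lower than in monocytes (median log2 ratio 1.40) and 9 higher and 5 lower than in interstitial macrophages (median 0.90). Mrc1 was at 2837, 2531, 2629 and 2536 CPM, against 19.9 CPM in monocytes and 1551 CPM in interstitial macrophages. The receptors for apoptotic cells Mertk and Axl were at 1354 and 723 CPM, against 7.47 and 38.6 CPM in monocytes and 712 and 264 CPM in interstitial macrophages. Without sublibrary 2 the log2 ratio of Axl to interstitial macrophages was 0.97 in place of 1.45. Marco, a gene of the rule whose level the choice of members fixed in part, was at 120, 170, 95.3 and 214 CPM. It had 0 UMIs in monocytes and 1 UMI in interstitial macrophages. Clec7a (dectin-1), Clec4n (dectin-2) and Tlr2 were higher than in both classes, at 775, 170 and 177 CPM. Msr1, a class A scavenger receptor like Marco, went the other way, at 16.8 CPM against 143 and 488 CPM.

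Among cytokines the members held transcripts of the IL-1 family in both directions. Il18 was at 274, 241, 221 and 216 CPM, against 18.7 and 36.2 CPM, and Il1rn, the IL-1 receptor antagonist, at 73.5 CPM against 1.25 CPM in monocytes and 0 UMIs in interstitial macrophages. Il1b was lower than in monocytes (30.6 against 169 CPM). Ccl6, a chemokine, was at 1383 CPM against 238 CPM in monocytes and 691 CPM in interstitial macrophages, the latter under 2-fold without sublibrary 3 or 4 (log2 ratios 0.89 and 0.80). Spp1, osteopontin, was at 104 CPM with 0 UMIs in monocytes. Il6, Il10, Cxcl1, Cxcl3 and Ccl24 had no UMI in the members. In all, 6 of 11 measured cytokine genes were higher and 2 lower than in monocytes, and 5 of 14 higher and 6 lower than in interstitial macrophages.

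Matrix proteases and their inhibitors went both ways: 3 of 8 were higher and 2 lower than in monocytes, and 4 of 11 higher and 6 lower than in interstitial macrophages (median log2 ratio -2.54). Mmp12, macrophage elastase, was at 4.47 CPM against 152 CPM in interstitial macrophages.

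Genes of antigen presentation were more often lower than higher. Of 13 antigen presentation genes, 1 was higher and 6 lower than in monocytes (median log2 ratio -0.86), and 0 were higher and 7 lower than in interstitial macrophages (median -1.44). Cd74, the invariant chain of MHC class II, was at 238, 112, 295 and 145 CPM, against 311 CPM in monocytes and 2097 CPM in interstitial macrophages. Cd86, a costimulatory ligand, was at 32.1 CPM against 182 and 575 CPM, while Cd80 differed less than 2-fold from both. Complement genes went both ways against monocytes, with 3 of 8 higher and 3 lower (median log2 ratio -0.15), while 1 of 12 was higher and 8 were lower than in interstitial macrophages. The complement genes C1qa, C1qb and C1qc had 0 UMIs in the members. They were used to choose the interstitial macrophages, where they were at 528, 477 and 376 CPM. C3ar1 also had 0 UMIs, against 145 CPM in interstitial macrophages.

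All 10 measured interferon-response genes were lower than in monocytes, with a median log2 ratio of -5.31. Mx1 had 2 UMIs in the members (0.746 CPM) against 122 CPM in monocytes, and Irf7 was at 1.86 CPM against 67.3 CPM. Against interstitial macrophages 1 gene of the list had enough UMIs, and it differed less than 2-fold.

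Iron storage genes were high. Fth1 and Ftl1, the ferritin chains, were at 1229 and 641 CPM against 203 and 182 CPM in monocytes and 560.4 and 546 CPM in interstitial macrophages. Of 13 antioxidant and iron genes 4 were higher and 1, Prdx6, lower than in monocytes, and 5 were higher and 1 lower than in interstitial macrophages. Without sublibrary 1 the log2 ratios to interstitial macrophages were 0.99 for Fth1 and -0.93 for Prdx6. Immediate early genes, which are induced within minutes by stimulation and by tissue dissociation, were lower than in both classes: 8 of 15 lower and 1 higher than in monocytes (median log2 ratio -1.18), 10 lower and 1 higher than in interstitial macrophages (median -1.28). Egr2 was the higher one in both. Nr4a1 was at 52.6 CPM against 1031 CPM in monocytes, where it is a factor of the Ly6c-low subset, and Fos at 334 against 582 CPM.

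The p53 family and its targets were looked at because the deleted gene belongs to that family. Trp53 was at 39.9 CPM against 37.4 and 61.5 CPM, and Trp63 had 0 UMIs. Of 10 measured genes 3 were higher and 0 lower than in monocytes (all genes 21.2% and 14.7%), and 1 was higher and 3 were lower than in interstitial macrophages (all genes 17.1% and 15%). Perp, a membrane protein gene induced by p53 family members, was at 60.4 CPM with 0 UMIs in both compared classes, and Cdkn1a at 101 CPM against 58.6 and 90.4 CPM.

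The fixed ranking against monocytes left out the same gene groups as the ranking of leading genes and needed at least 100 UMIs over both classes. Its 10 higher genes included Kcnip4, the rule gene Atp6v0d2, Kcnn3, Htr2c, Dab2, Dst, Slc7a2, Plet1 and Mgll. Kcnip4, which encodes a protein that modulates potassium channels, was at 5071, 4735, 4565 and 4421 CPM against 3 UMIs in monocytes (log2 ratio 10.30, 8.75 to 12.58, and 11.54 without sublibrary 3) and 235 CPM in interstitial macrophages. Kcnn3, a potassium channel gene, and Dab2, an endocytic adaptor, had 0 UMIs in monocytes and were at least 259-fold and 201-fold higher. Dab2 was as high in interstitial macrophages, at 730.4 CPM against 751 CPM. The 10 lower ones included F13a1, Adgre4, Rap1gap2, Fyb, Plac8, Arhgef37, Thbs1, Itgam and Ms4a6b, of which F13a1 and Adgre4 are among the genes that chose the monocytes. Itgam, the CD11b chain, had 4 UMIs in the members (1.49 CPM) against 624 CPM, and Itgax, the CD11c chain, was at 489 CPM against 71.0 CPM, the surface pattern by which alveolar macrophages are known.

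Against interstitial macrophages the 6 higher genes included Chil3, Atp6v0d2, Htr2c, Plet1 and Cracd, and the 6 lower ones Stab1, F13a1, C1qa, Cd163, C1qb and Rnf150. Chil3 and Atp6v0d2 are rule genes, and C1qa and C1qb are among the genes that chose the interstitial macrophages. The places of these genes were thus fixed in part. Plet1, a surface protein of epithelial and myeloid cells, was at 649 CPM with 0 UMIs in both. The scavenger receptors Stab1 and Cd163 had 0 UMIs in the members against 1059 and 513 CPM. The 10 genes with the most UMIs in the members, without adjustment for length, were Rn18s-rs5 (an 18S ribosomal RNA sequence), Cmss1, Cdk8, Malat1, Lars2, Gphn, Kcnip4, Lyz2, Camk1d and Dock10. Rn18s-rs5 alone took 12.98% of the UMIs.

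Dividing cells were present among the members. At least 10 of 20 cell cycle genes had a UMI in 8 of 193 Cre_Neg members (4.15%, 1.81 to 8.00%), against 0 of 110 monocytes, which allows up to 3.30%, and 13 of 2123 alveolar type 2 cells (0.612%). With members thinned to 5000 UMIs, 6 passed this limit. The 8 cells came from all sublibraries (3, 1, 3 and 1), had at least 7 of the 13 further macrophage markers each, included none with 3 or more alveolar type 2 markers, and held 1095 of the 1609 cell cycle UMIs (68.1%). Mki67, a proliferation marker, was at 171, 55.5, 276 and 176 CPM over the sublibraries, lowest in sublibrary 2. Of the list, 13 of 16 measured genes were higher than in monocytes, which also have lower depth, and 9 higher than in interstitial macrophages. Bub1b, a spindle checkpoint kinase, was seen beyond the dividing cells, in 67 of 176 members with fewer than 5 cell cycle genes (38.1%), where Mki67 was in 23 (13.1%).

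Surfactant protein transcripts in the members came mostly from 1 barcode. The 6 genes of the list summed to 356 CPM, and 639 of their 955 UMIs (66.9%) lay in a sublibrary 2 member with 69170 UMIs and all 6 alveolar type 2 markers. Without it the sum was 121 CPM, and in sublibrary 2 it was 129 CPM in place of 789 CPM. Without all 14 members with 3 or more alveolar type 2 markers it was 115 CPM, against 168 CPM in monocytes and 24597 CPM in alveolar type 2 cells. Of the 6 genes 4 (Sftpa1, Sftpb, Sftpc and Lamp3) were at least 2-fold higher than in monocytes with those members included.

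Epcam, the antigen of the bead enrichment, was found among the members, also when those with 3 or more alveolar type 2 markers were left out. It had 84 UMIs in 42 of 193 Cre_Neg members (21.8%, 16.2 to 28.3%), at 38.1, 32.5, 30.8 and 22.2 CPM in sublibraries 1 to 4, against 0 of 110 monocytes (up to 3.30%), 0 of 23 interstitial macrophages and 62.3% of the alveolar type 2 cells. At 2000 UMIs per cell it was in 8 of 190 members, 0 of 107 monocytes and 18.4% of the alveolar type 2 cells. In the free RNA of the Cre_Neg pool, read from barcodes of 50 UMIs or fewer, Epcam was at 41.0 CPM, and the members were at 30.4 CPM without those with 3 or more alveolar type 2 markers. Whether the enrichment retained such cells was not tested.

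Members of the 2 sexes, which come from different mice of the pool, were compared as a view of variation within the class. Of 8327 genes 703 were at least 2-fold higher in the 133 Xist-only members (8.44%) and 178 higher in the 38 Y-only members (2.14%), sex-linked genes included. These counts depend on low counts and on few cells. Among genes with at least 100 UMIs, which are fewer, they were 62 and 5. Without members with 5 or more cell cycle genes or 3 or more alveolar type 2 markers they were 483 and 202. The identity genes did not separate: Pparg differed by 0.22 on the log2 scale, Siglecf by 0.11, Ear2 by 0.00 and Car4 by 0.05, and no gene of the identity factor, growth factor or scavenger receptor lists passed 2-fold. Fkbp5, a target of glucocorticoids, was at 538 CPM in Xist-only and 200.2 CPM in Y-only members (log2 ratio 1.43, 1.12 to 1.74, higher in 4 of 4 sublibraries). Erc2 was at 268 against 90.6 CPM and Epcam at 37.9 against 4.21 CPM, with 35 Xist-only and 2 Y-only members bearing an Epcam UMI. Knl1, a kinetochore gene, and Efcab11 had 60 and 50 UMIs against 0, so they were at least 4.86-fold and 4.05-fold higher. Without sublibrary 1 the log2 ratio of Epcam was 2.19 in place of 3.17, and the bounds of Knl1 and Efcab11 fell to 1.36 and 1.41 without sublibrary 3 and to 1.52 and 1.25 without sublibrary 4.

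The 5 genes named as lower in Xist-only members were Zswim4, Fam171a1, Nt5dc1, Grina and Aldh18a1, with 50 to 189 UMIs in all and log2 ratios from -1.58 to -1.11. Thinned to 2000 UMIs per cell, Fam171a1 turned to 0.75 on the log2 scale and Aldh18a1 was at -0.83. Zswim4 was at 14.8 against 44.2 CPM and Nt5dc1 at 63.5 against 137 CPM, a difference under 2-fold without sublibrary 4 (log2 ratio -0.92). Genes of MHC class II were higher in Y-only members: H2-Aa was at 78.0 against 8.70 CPM, H2-Ab1 at 105 against 20.0 CPM and Cd74 at 613 against 102 CPM, in 3 of 4 sublibraries each. Over all Cre_Neg members 82.5% of the MHC class II UMIs lay in 19 cells, 7 of them Y only and 11 Xist only. These levels thus rest on few cells. Of 13 antigen presentation genes 4 were lower in Xist-only members and 0 higher. Cell cycle genes were higher in Xist-only members, 10 of 15 by 2-fold, with sums of 715 against 318 CPM. Without the members with 5 or more cell cycle genes or 3 or more alveolar type 2 markers these sums were 145 and 173 CPM, so the direction turned. At least 10 cell cycle genes were seen in 5.26% of the Xist-only (2.14 to 10.5%) and 2.63% of the Y-only members (0.0666 to 13.8%).

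MHC class II transcripts were concentrated in few cells. Of the 193 Cre_Neg members 144 had no UMI of H2-Aa, H2-Ab1, H2-Eb1 or Cd74, and 10 had all 4. The 19 members with at least 3 held 578 of the 701 UMIs (82.5%). They lay in all sublibraries (5, 6, 6 and 2), 11 were Xist only and 7 Y only, 4 had 3 or more alveolar type 2 markers and 4 had a dendritic cell marker. They had a median of 11 of the 13 further alveolar macrophage markers and no fewer than 7. The means for Cd74 above are thus not those of a typical member.

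For the lysosome, lipid and scavenger receptor lists every member examined held transcripts. At 5000 UMIs per cell, in the members with that depth, the lysosome list had a median of 36 UMIs per cell (14 to 88), the lipid list 29 (10 to 63) and the scavenger receptor list 42 (13 to 81). The Fano factor, the variance over the mean, was 21.8 for the cell cycle list, 12.2 for surfactant proteins, 5.49 for antigen presentation and 4.05 for the RNase list, and between 1.02 and 3.79 for the other 13. It rises with the mean, so lists of different levels are not ranked by it. Chil3 ranged from 1 to 51 UMIs with a median of 15 and was missing from no cell. Kcnip4 ranged from 0 to 73 with a median of 22 and was missing from 17 cells, Htr2c was missing from 38 and Egfem1 from 90. Fn1, fibronectin, ranged from 0 to 41 UMIs with a median of 4.

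**Figure D5:**
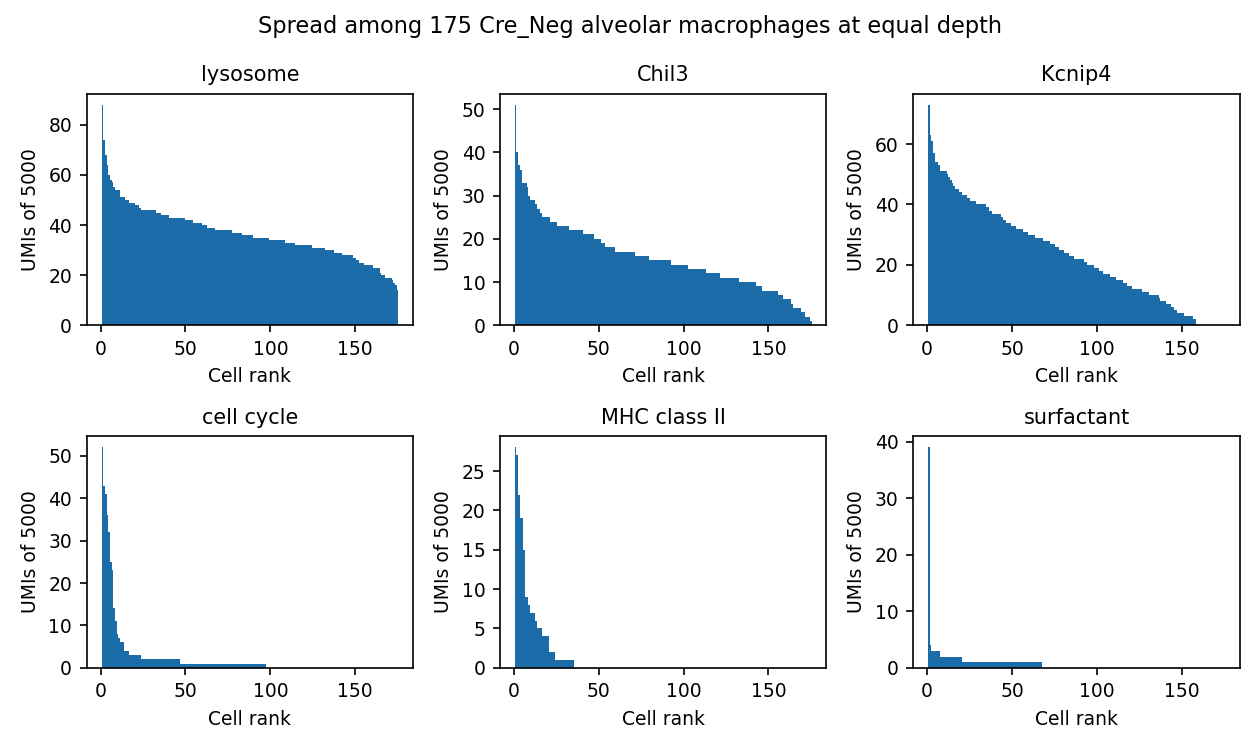
UMIs per cell, of 5000, for 2 single genes and 4 gene lists in the Cre_Neg alveolar macrophages thinned to that depth, each panel ranked from the highest to the lowest cell. Lysosome and Chil3 transcripts were in every cell and Kcnip4 was missing from 17, whereas cell cycle and MHC class II transcripts lay mostly in a few cells. The highest cell held 39 surfactant UMIs and the median cell 0, with the rest spread thinly over many cells.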

How the data were processed

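Single-cell RNA counts from 4 sublibraries of pooled mouse lung cells were used. The deposited matrix holds whole-number UMI counts per gene and cell, made by the authors. Which aligner and counting tool made it was not stated in the sources used here. The genome build is GRCm39 per the submitters' processing notes and mm10 per the file headers, and whether counting used strand is not given either, so overlapping genes are uncertain. The matrix held 191160309 UMIs over 647296 barcodes and 57010 genes, and 0 columns were left unused.

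Cells were assigned to a pool by the deposited well assignments, which the labels describe. Members were chosen by the rule in the results. Monocytes and interstitial macrophages needed at least 3 of 8 and 3 of 6 markers and alveolar type 2 cells at least 4 of 6, each cell meeting 1 rule only. The members, markers and gene lists were chosen with earlier results of these data known. A gene's UMIs in all cells of a class, relative to all UMIs of that class, gave its CPM, and ratios carry exact conditional binomial 95% intervals, shares Clopper-Pearson intervals and levels exact Poisson intervals. These cover counting error only. Because each genotype is 1 pool, no test across genes was run and no p-value is given. A gene was called at 2-fold with at least 20 UMIs, and a class at 0 was set to 3 UMIs. Genes were named by fixed rules: the 20 leading genes over all other Cre_Neg cells by the lower bound of the ratio, the 10, 6 and 5 genes each way against monocytes, interstitial macrophages and between the sexes (same sign in 4 sublibraries), the rule and marker genes, members of the lists and the 10 genes with the most UMIs. Some genes that these rules name are not reported here. Egfem1, Kcnip4 and Fn1 as examples of spread, and Bub1b and Epcam, were singled out after their values were seen. Doublets were called per sublibrary with Scrublet in scanpy 1.11.5, which marked 185 of 16541 kept cells (1.12%), 2 of them members, and were left in except in an alternative. The intervals and calls were run on simulated counts, drawn as independent Poisson counts for each class. The intervals assume this model, so the run does not show how they behave where UMIs cluster in few cells. Python 3.11.15, numpy 2.4.6, scipy 1.17.1 and pandas 2.3.3 were used. Alternatives changed the marker, gene and mitochondrial limits, the denominator, the scaling, the count filter and the depth, and left out each sublibrary.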

Additional observations from a re-analysis of the deposited data

Results flagged for a closer look

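Over 47 values compared between the 4 Cre_Neg sublibraries, 3 had a sublibrary far from the other 3, where chance alone marks about 1 in 20 groups. Summed surfactant protein transcripts were at 789 CPM in sublibrary 2 and between 90.8 and 131 CPM in the others, and at 129 CPM in sublibrary 2 without its 1 member of 69170 UMIs. Abcg1 was at 2433 CPM in sublibrary 3 and between 2023 and 2076 CPM in the others. Lpl was at 1225 CPM in sublibrary 3 and between 1023 and 1049 CPM in the others.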

How the results depend on the processing

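The share of alveolar macrophages was higher in Cre_Neg under each alternative run, from 17.4-fold among Y-only cells to 72.0-fold without Scrublet doublets. It was 32.1-fold with 2 markers, 42.9-fold with 4, 29.3-fold with at least 200 genes and 50.6-fold to 60.3-fold without each sublibrary. Without members with 3 or more alveolar type 2 markers, chosen after seeing the data, it was 67.0-fold.

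Counts of genes at least 2-fold apart changed with the count filter and the depth, which set how many genes are tested. With at least 100 UMIs they were 808 higher and 733 lower than in monocytes, 755 and 442 against interstitial macrophages, and 62 and 5 between the sexes. With cells thinned to 2000 UMIs they were 793 and 897, 735 and 517, and 235 and 78, and without a filter 2405 were lower than in interstitial macrophages. Leaving out each sublibrary gave 1707 to 1858 higher and 1275 to 1332 lower than in monocytes, 1446 to 1568 and 1194 to 1311 against interstitial macrophages, and 576 to 708 and 170 to 221 between the sexes. Scaling by total UMIs without Rn18s-rs5, and the sexes compared without dividing and alveolar type 2 bearing members (483 higher, 202 lower), were added after seeing the data.

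Of the genes examined singly, 111 were at least 2-fold apart from monocytes, of which 0 changed sign and 6 fell under 2-fold in an alternative. Against interstitial macrophages 23 of 98 did so, 12 of them without 1 sublibrary and 15 when thinned, and 52 moved by over 1.5 times without 1 sublibrary, and the cause was not tested. Between the sexes 3 of 10 did so, and Fam171a1 reversed when thinned (0.75 on the log2 scale). No paired analysis was possible because no result comes from a test: the sublibraries are technical aliquots of the same 2 pools, and the shares of both pools within each sublibrary are given as values.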

Other observations

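In the Cre_Pos pool the 8 interstitial macrophages had a median of 10944 UMIs and the 110 monocytes a median of 7754 UMIs, against 12556 and 6924 UMIs in the Cre_Neg pool. The share of mitochondrial transcripts had a median of 3.35% in the 193 Cre_Neg alveolar macrophages and of 3.17% in the 4 of the Cre_Pos pool. It was 1.39% in Cre_Neg monocytes, 1.30% in Cre_Neg interstitial macrophages and 2.97% in Cre_Neg alveolar type 2 cells.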
